A study of Mus musculus with 24 samples.

Results

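Whole kidneys of adult C57BL6 mice were profiled by bulk RNA sequencing, and the 8 genes described here carry vitamin D into kidney cells, add its 25-hydroxyl group or read the finished hormone. They are Lrp2, Cubn, Cyp2r1, Cyp27a1, Fdx1, Fdxr, Vdr and Rxra, chosen by symbol for these roles from 19426 genes in the table. The mice had received YKL-05-099, a compound that blocks salt-inducible kinases (SIKs) and that the study calls promiscuous across the kinome, or hPTH(1-34), the active fragment of human parathyroid hormone (PTH), or vehicle, each as 1 dose shortly before the kidneys were taken. The study's description of this treatment gives a longer interval after YKL-05-099 than after PTH, so in their comparison agent and time cannot be told apart. It gives no interval or route for vehicle, so time or route may also differ in the comparisons with vehicle. The mice shared strain and sex label, the labels name no altered allele, and each label was carried by 8 libraries, 24 in all. The series text states intraperitoneal injection and 6 per treatment, while the study's own methods put PTH under the skin and 8 libraries carry each label. It is therefore not known whether each library is 1 animal, and the p-values measure the spread between libraries, part of which may be technical.

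Vitamin D from skin or diet is hydroxylated at carbon 25 in the liver, mainly by CYP2R1 of the endoplasmic reticulum and also by CYP27A1 of mitochondria. The product travels on a binding protein that is filtered by the glomerulus, and the proximal tubule takes the complex back up through the endocytic receptors megalin (Lrp2) and cubilin (Cubn). Inside the cell, CYP27B1 makes the active hormone and CYP24A1 breaks it down. Both are mitochondrial enzymes, as is CYP27A1, and all of them receive electrons from ferredoxin (Fdx1), which is reduced by ferredoxin reductase (Fdxr). The active hormone binds the vitamin D receptor (Vdr), which pairs with a retinoid X receptor (Rxra and its relatives) on DNA. PTH raises Cyp27b1 and lowers Cyp24a1 in the kidney, so both served here as the readout of the agents.

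The libraries were checked first. Depth, estimated from the whole-fragment steps of low values, was 5860000 to 7150000 fragments per library. Kidney tubule transcripts were abundant, with 10 of 10 proximal tubule S1 and S2 markers above 0 in every library. Their summed level was 7535 to 10744 FPKM with YKL-05-099, 7408 to 8774 with PTH and 7763 to 9152 with vehicle (FPKM, fragments normalised to transcript length and to the library total, so that genes of different length can be set side by side). Summed thick ascending limb markers ran from 1221 to 2733 FPKM and principal cell markers from 209 to 409 FPKM over all libraries. These levels cannot tell a whole kidney from a part of it. The mice are labelled male, yet all 24 libraries held 76.3 to 114 FPKM of Xist, which an inactive X chromosome transcribes, and at most 0.1 FPKM of the Y-linked Ddx3y. Cyp27b1 averaged 33.5 ± 16.3 FPKM with YKL-05-099 and 63.3 ± 35.5 FPKM with PTH, against 4.65 ± 1.59 FPKM with vehicle (SD, n = 8 each), and the lowest treated library, at 11.9 FPKM, stood above the highest vehicle library, at 7.05 FPKM. Cyp24a1 averaged 19.7 ± 6.44, 3.57 ± 1.97 and 57.1 ± 50.6 FPKM with YKL-05-099, PTH and vehicle. Its YKL-05-099 libraries, at 10.2 to 30.2 FPKM, overlapped the vehicle libraries, at 20.3 to 172 FPKM. The PTH libraries, at 0.73 to 6.04 FPKM, lay below both. Vehicle replicate 7 held the highest value, 172 FPKM.

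The threshold was an adjusted p of 0.05 from limma, a linear model fitted to all genes at once. It called 0 of the 8 genes for YKL-05-099 against vehicle, where 17.7% of all genes were called, 0 for PTH against vehicle, where 17.1% were, and 0 for YKL-05-099 against PTH, where 6.42% were. Both agents were set against the same vehicle libraries, so their fold changes are not independent of each other. At an unadjusted p below 0.05 there were 2 (Cubn and Fdx1), 1 (Vdr) and 2 (Vdr and Rxra) by limma, and 2, 0 and 2 by exact permutation tests. By limma 31.6%, 29.7% and 20.6% of all genes were below 0.05 without adjustment, beside 2, 1 and 2 of 8. Among all genes called, 35.3% were higher with YKL-05-099 and 35.0% with PTH than with vehicle, and 50.3% and 49.9% under median-ratio scaling. The median log2 fold change of the 8 was 0.05, -0.0034 and 0.07, against -0.05, -0.05 and 0.0022 over all genes.

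**Figure D1:**
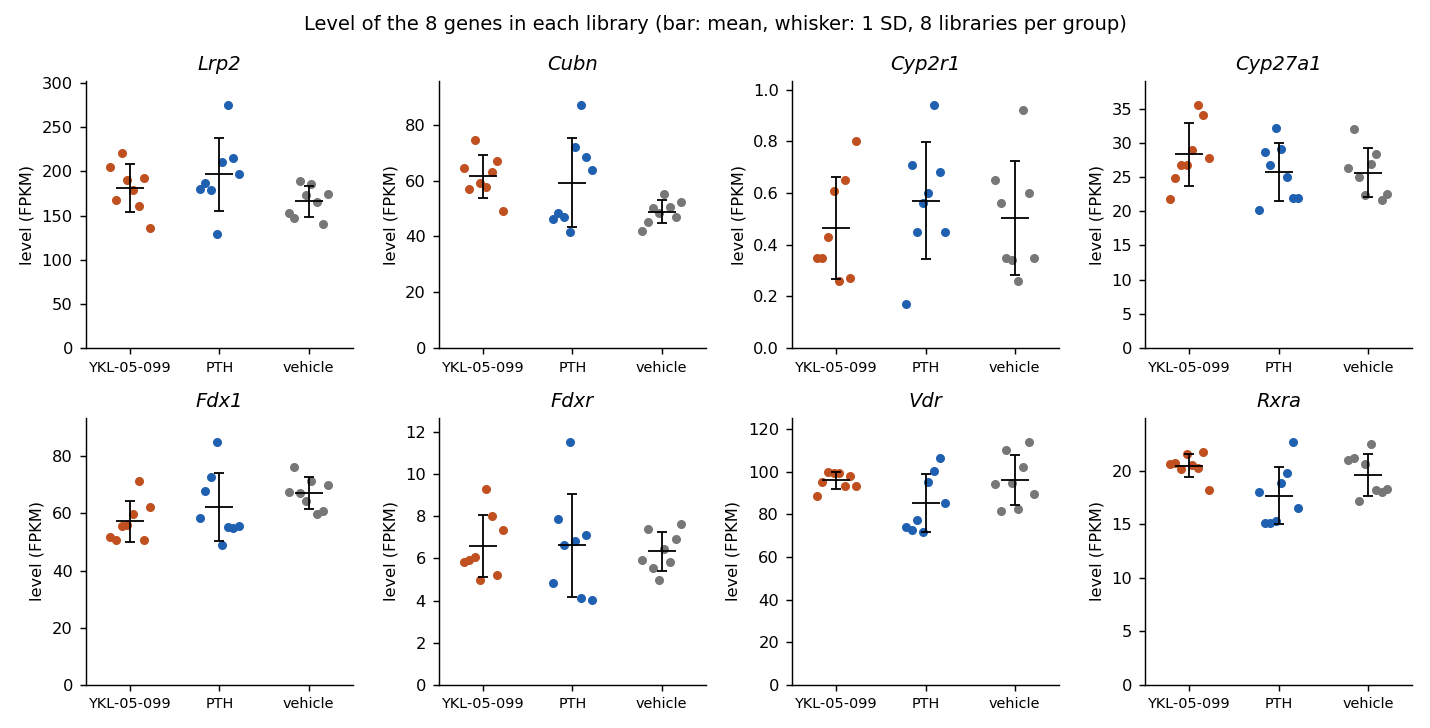
Level in FPKM (vertical axes, each from 0) of the 8 genes in every library, with YKL-05-099 left, PTH in the middle and vehicle right, replicate 1 to 8 from left to right in each group, a bar at the mean and a whisker of 1 SD. The groups overlap for all 8 genes, and the PTH libraries are the most spread for Cubn, with values of 41.6 to 87.0 FPKM.

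The 8 genes spanned more than 2 orders of magnitude in level. Lrp2 was the highest, at 181 ± 26.8 FPKM with YKL-05-099, 197 ± 41.2 with PTH and 166 ± 17.7 with vehicle, and its libraries did not overlap those of Vdr, the next gene, in any group. Vdr followed at 95.9 ± 3.99, 85.4 ± 13.6 and 96.1 ± 11.9 FPKM in the same groups. Fdx1 (57.3 ± 7.12, 62.4 ± 11.97 and 67.2 ± 5.50 FPKM) and Cubn (61.5 ± 7.57, 59.3 ± 15.98 and 48.8 ± 4.19 FPKM) came next. Their libraries overlapped each other with YKL-05-099 and with PTH, whereas with vehicle every Fdx1 value lay above every Cubn value. Cyp27a1 and Rxra, the fifth and sixth genes, overlapped in every group. Fdxr averaged 6.58 to 6.61 FPKM with either agent and 6.33 FPKM with vehicle. Cyp2r1 was lowest, at 0.465 ± 0.198 FPKM with YKL-05-099, 0.57 ± 0.226 with PTH and 0.504 ± 0.221 with vehicle, apart from Fdxr in every library. The mitochondrial 25-hydroxylase transcript Cyp27a1 was thus present at 34.8 to 126 times the level of the microsomal one in the YKL-05-099 libraries, 26.5 to 118 times in PTH libraries and 30.9 to 103 times in vehicle libraries. Expressed in fragments, Cyp2r1 rested on about 2 to 11 per library, a number at which counting error alone is large.

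Promoter sequence is shown for the 4 genes whose values came nearest to the threshold or anchor the pathway, and for Nr4a1, an early-response gene that rose with both agents, as a contrast. Each line gives the 250 bases before the RefSeq start on GRCm38.p6, read 5′ to 3′ on the gene's strand. Capitals mark the core motif of the cAMP response element (CGTCA or TGACG), the core motif of hepatocyte nuclear factor 1 (GTTAAT or ATTAAC) and the GC box (GGGCGG or CCGCCC), searched on both strands with no overlap among the matches shown. The GC box was added after the windows had been seen.
Cubn: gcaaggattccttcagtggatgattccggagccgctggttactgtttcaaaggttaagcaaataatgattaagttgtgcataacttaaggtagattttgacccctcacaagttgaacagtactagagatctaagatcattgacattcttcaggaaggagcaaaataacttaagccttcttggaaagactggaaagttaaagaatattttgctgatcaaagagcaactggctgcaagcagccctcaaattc
Lrp2: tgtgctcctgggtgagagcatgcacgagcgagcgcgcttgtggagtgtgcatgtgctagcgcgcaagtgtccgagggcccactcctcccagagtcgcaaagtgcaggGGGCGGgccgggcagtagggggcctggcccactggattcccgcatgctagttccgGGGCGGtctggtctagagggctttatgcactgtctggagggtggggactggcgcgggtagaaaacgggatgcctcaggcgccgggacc
Fdx1: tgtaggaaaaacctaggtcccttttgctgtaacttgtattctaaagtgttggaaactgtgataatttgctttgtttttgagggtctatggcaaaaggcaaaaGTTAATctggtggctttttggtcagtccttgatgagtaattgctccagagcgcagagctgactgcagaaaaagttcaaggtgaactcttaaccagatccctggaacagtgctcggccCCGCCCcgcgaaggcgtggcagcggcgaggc
Vdr: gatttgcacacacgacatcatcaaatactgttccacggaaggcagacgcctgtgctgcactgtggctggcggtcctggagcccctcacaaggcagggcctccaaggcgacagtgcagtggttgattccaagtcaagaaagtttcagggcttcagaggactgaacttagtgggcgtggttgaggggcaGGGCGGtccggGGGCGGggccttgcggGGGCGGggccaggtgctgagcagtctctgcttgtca
Nr4a1: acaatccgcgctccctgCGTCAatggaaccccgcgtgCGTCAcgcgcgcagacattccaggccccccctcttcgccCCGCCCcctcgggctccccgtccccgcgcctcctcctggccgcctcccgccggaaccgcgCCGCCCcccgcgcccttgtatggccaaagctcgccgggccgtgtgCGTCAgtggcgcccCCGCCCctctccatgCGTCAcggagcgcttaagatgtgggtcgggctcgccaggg
The windows are chr2:13491877-13492126 (minus strand) for Cubn, chr2:69586030-69586279 (minus) for Lrp2, chr9:51963603-51963852 (minus) for Fdx1, chr15:97908297-97908546 (minus) for Vdr and chr15:101266596-101266845 (plus) for Nr4a1. None of the 9 windows of the 8 genes (Rxra has 2) held the cAMP core motif, which 22.7% of 18567 windows of genes in the table held, and the Nr4a1 window held 4. The window of Cyp27b1, which also rose with both agents, held 0. The Cubn window had 2 CpG dinucleotides, 39.6% G and C and no GC box, whereas the window of its partner Lrp2 had 18 CpG, 66.4% G and C and 2 GC boxes. Vdr had 3 GC boxes and Fdx1 had 1, against a share of 48.9% of all windows with at least 1. Fdx1 held the hepatocyte nuclear factor 1 core motif once, starting 148 bases before the start, a sequence found in 4.94% of windows. A direct repeat of the kind bound by the vitamin D receptor, with a spacer of 3 bases, was in none of the members' windows and in 0.0269% of all windows. A match describes the letters only, and no binding was measured in these libraries. In separate kidneys the study reports more binding of the coactivator CRTC2 after PTH or SIK inhibitor. Those sites were Cyp27b1 enhancers that it places within other genes. Enhancers outside the 250 bases were not searched here.

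The endocytic receptors were examined first, since they deliver the substrate. Lrp2 (megalin, gene 14725, chromosome 2, 69424335 to 69586029, GRCm38) ran from 136 to 220 FPKM with YKL-05-099 (median 184), from 129 to 275 with PTH (median 192) and from 141 to 189 with vehicle (median 169). The 3 ranges overlapped, and 6 of 8 YKL-05-099 libraries and 7 of 8 PTH libraries were above the vehicle mean. The log2 fold change was 0.12 (SE 0.11, adjusted p = 0.493) for YKL-05-099 and 0.22 (SE 0.11, adjusted p = 0.178) for PTH, from limma's moderated test on log2(FPKM + 0.1) with Benjamini-Hochberg adjustment over 13991 genes. For PTH the adjusted p ran from 0.0306 to 0.368 over 33 alternatives (other pseudocounts, filters, scalings, weights and models, and each library left out) and was below 0.05 in 2, without PTH replicate 4 (log2 fold change 0.31, 0.0306) and with limma's weights for libraries of unequal quality (library weights, 0.0482).

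Cubn (cubilin, gene 65969, chromosome 2, 13276338 to 13491876) had its lowest, median and highest values at 49.2, 61.0 and 74.5 FPKM with YKL-05-099, at 41.6, 56.1 and 87.0 FPKM with PTH and at 41.9, 49.3 and 55.2 FPKM with vehicle. All 8 YKL-05-099 libraries lay above the vehicle mean, and 7 of them above the highest vehicle library. The log2 fold change against vehicle was 0.33 (SE 0.12, 95% interval 0.08 to 0.57, or 1.06- to 1.49-fold) with an adjusted p of 0.0557, the nearest that any of the 8 genes came to the threshold of 0.05. An exact permutation test of these 2 groups gave p = 0.00109 before adjustment. The limma fit shares 1 spread over the 3 groups, and the Cubn SD was 15.98 FPKM with PTH, against 7.57 with YKL-05-099 and 4.19 with vehicle. Over 33 alternatives the adjusted p ran from 0.0032 to 0.106 and was below 0.05 in 7, among them a fit of those 2 groups alone (0.0032), median-ratio scaling (0.0429) and a fit with a covariate for library differences between long and short transcripts (the length index) (log2 fold change 0.23, 0.0442). Leaving out PTH replicate 4, PTH replicate 6 or YKL-05-099 replicate 8 also brought it below, to 0.0353, 0.0274 and 0.0352. With PTH the log2 fold change was 0.24 (SE 0.12, adjusted p = 0.176), with a range of 0.0359 to 0.373 over 33 alternatives that was below 0.05 with library weights alone. PTH replicates 5 to 8 were at 63.8 to 87.0 FPKM, all above the highest vehicle library, and replicates 1 to 4 were at 41.6 to 48.4 FPKM. The labels give no batch for these libraries. The summed level of the nuclear RNAs Malat1, Neat1 and Xist also separated these PTH sets. It was 704 to 859 FPKM in replicates 1 to 4 and 552 to 658 FPKM in replicates 5 to 8. With YKL-05-099 this sum ran from 502 to 1010 FPKM and with vehicle from 734 to 949 FPKM. Its part in the split was not tested. An opposite-strand transcript, Gm13270, overlaps 207 exonic bases of Cubn, and without a stated strand setting their reads cannot be told apart.

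**Figure D2:**
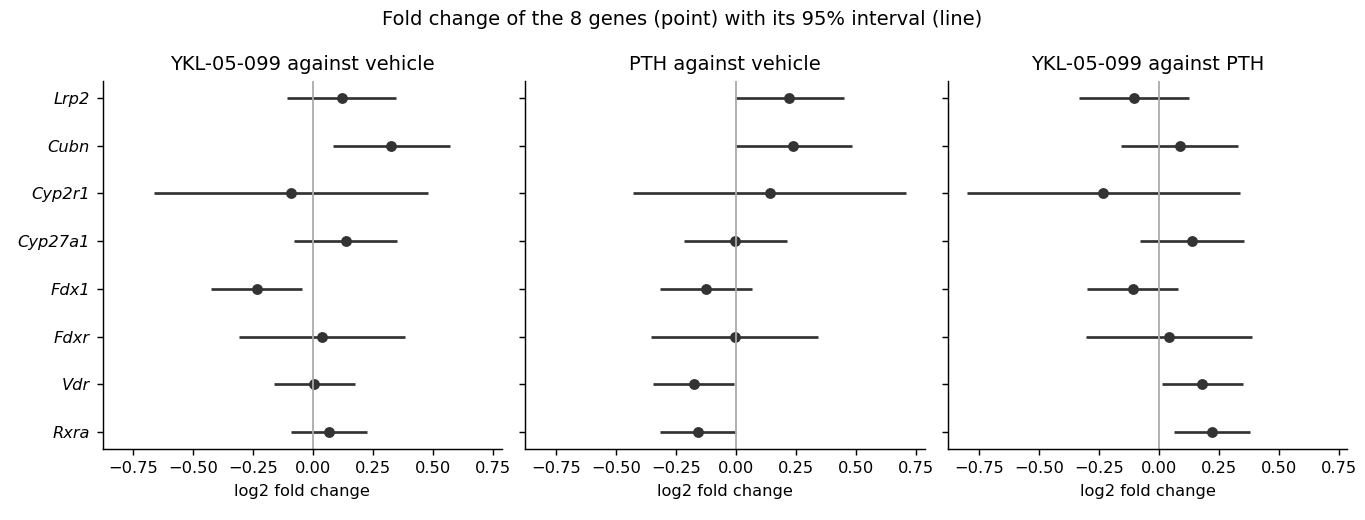
Log2 fold change of the 8 genes (horizontal axis) with its 95% interval as a line, for YKL-05-099 against vehicle (left), PTH against vehicle (middle) and YKL-05-099 against PTH (right). The Cubn interval for YKL-05-099, 0.08 to 0.57, and the Fdx1 interval, -0.43 to -0.04, exclude 0 before adjustment, and the Cyp2r1 intervals are the widest.

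A ratio of partner genes within 1 library does not depend on how that library was scaled, and 4 such ratios were compared in 3 comparisons each. The tests added 0.1 FPKM to each gene before log2, so this holds only roughly for Cyp2r1, at 0.17 to 0.94 FPKM. Cubn/Lrp2 was 0.310 to 0.392 with YKL-05-099 (median 0.339), 0.257 to 0.342 with PTH (median 0.318) and 0.266 to 0.334 with vehicle (median 0.299). Every YKL-05-099 library was above the vehicle mean and above the PTH mean, although the ranges overlapped. On the log2 scale the ratio was higher by 0.21 with YKL-05-099 than with vehicle (1.15-fold, exact two-sided permutation test p = 0.00171, adjusted over 12 tests p = 0.0205), the only one of the 12 below 0.05 after adjustment. Against PTH it was higher by 0.19 (exact permutation p = 0.0216, adjusted p = 0.0864, and 0.0448 without PTH replicate 5). Between PTH and vehicle the difference was 0.02 (exact permutation p = 0.817, adjusted p = 0.867). That PTH mean covers 2 separate sets of libraries. PTH replicates 1 to 3 were at 0.257 to 0.262, below every vehicle library. Replicates 4 to 8 were at 0.316 to 0.342, above the vehicle mean and within the YKL-05-099 range. The YKL-05-099 difference from vehicle stayed below 0.05 with the length index taken out, with a pseudocount of 1 FPKM and without each of the 16 libraries in turn, over which it ran from 0.18 to 0.23. With the replicate number as a block the adjusted p was 0.0938. That test flips the signs of differences between same-numbered libraries, which were all positive here. It thus returned its smallest possible p, and 1 ratio alone could not fall below 0.0938 after adjustment over the 12 tests. Same-numbered libraries did not deviate together over all genes, which does not exclude a pairing.

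**Figure D3:**
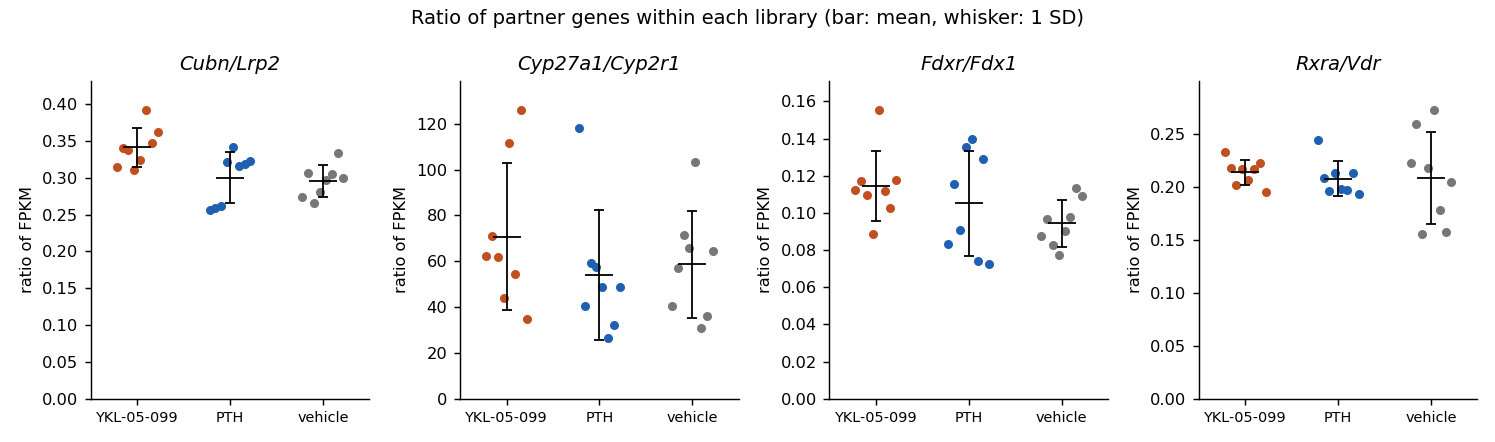
Ratio of FPKM of partner genes within each library (vertical axes, each from 0), with YKL-05-099 left, PTH in the middle and vehicle right, replicate 1 to 8 from left to right in each group, a bar at the mean and a whisker of 1 SD. For Cubn/Lrp2 all 8 YKL-05-099 libraries, at 0.310 to 0.392, lie above the vehicle mean of 0.296.

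Other genes of receptor-mediated uptake were counted beside the receptors. Of 15 measured genes that fold, anchor, sort or recycle these receptors, limma called 3 with YKL-05-099, 1 higher and 2 lower, where 17.7% of all genes were called, and 8 had an unadjusted p below 0.05. The list's median log2 fold change was 0.04, against -0.05 over all genes. Ehd1, which drives recycling from endosomes, rose to 38.7 ± 2.31 FPKM with YKL-05-099, against 31.1 ± 1.67 FPKM with vehicle (SD, n = 8 each, log2 fold change 0.31, adjusted p = 0.000164), and all its YKL-05-099 values, from 34.2 to 41.8 FPKM, lay above the vehicle maximum of 33.3 FPKM. Lrpap1, the chaperone that keeps megalin free of ligand during folding, fell by 0.24 (adjusted p = 0.0121) and the recycling GTPase gene Rab11a by 0.13 (adjusted p = 0.0456) on the log2 scale. Median-ratio scaling ended the calls of Lrpap1 and Rab11a (adjusted p = 0.0502 and 0.224), and added Dab2 (log2 fold change 0.24, 0.0438), which gave 2 higher and 0 lower. Quantile normalization ended that of Rab11a (0.053). Amn, the membrane anchor of cubilin, was at 26.7 ± 4.76 FPKM with YKL-05-099, 26.2 ± 7.77 with PTH and 21.4 ± 2.64 with vehicle and was not called (adjusted p = 0.1 and 0.198, and 0.00891 and 0.0183 with the length index covariate). Dab2, the adaptor that couples megalin to clathrin, was at 208 ± 20.0 FPKM with YKL-05-099 and 181 ± 12.6 FPKM with vehicle (adjusted p = 0.0546). With PTH, limma called 0 of the 15, with 3 at an unadjusted p below 0.05 and a list median of -0.02, where 17.1% of all genes were called. With the length index covariate 1 was higher (Amn, 0.36, adjusted p = 0.0183) and 1 lower (Myo6, -0.13, adjusted p = 0.0402). Against PTH, 1 of the 15 was called with YKL-05-099, again Ehd1 (log2 fold change 0.33, adjusted p = 0.0001), where 6.42% of all genes were.

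The receptors sit in the brush border of the proximal tubule, so markers of that segment were set beside them. Of 10 S1 and S2 markers, 2 rose with YKL-05-099, Gatm by 0.48 and Slc34a1 by 0.42 on the log2 scale, and 0 fell, a share near the 17.7% of all genes called, with a list median of 0.16 against -0.05 over all genes. With PTH limma called 0 of the 10, with 1 at an unadjusted p below 0.05. Among markers of other cells, those called lower with YKL-05-099 were 4 of 9 leukocyte, 3 of 9 endothelial, 3 of 7 intercalated cell, 2 of 7 distal convoluted tubule and 2 of 7 fibroblast and smooth muscle genes, against 17.7% of all genes called in either direction. Of S3 segment and principal cell markers 1 of 7 each was higher, and limma called 0 of 5 thick ascending limb, 0 of 5 podocyte and 0 of 8 macrophage markers, with 0, 3 and 2 at an unadjusted p below 0.05. The summed leukocyte level was 28.2 to 47.3 FPKM with YKL-05-099, 39.8 to 91.4 with PTH and 42.3 to 62.9 with vehicle. Their part in the Cubn values was not tested. In whole tissue, fewer cells of a type and less RNA per cell cannot be told apart.

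Neither 25-hydroxylase passed the test in any comparison. Cyp27a1 (gene 104086, chromosome 1, 74713148 to 74737897) ran from 21.8 to 35.5 FPKM with YKL-05-099 (median 27.3), from 20.1 to 32.2 with PTH (median 25.8) and from 21.7 to 32.0 with vehicle (median 25.7). The groups overlapped over nearly their whole range. Its log2 fold change was 0.14 with YKL-05-099 (adjusted p = 0.399, interval 0.946- to 1.28-fold) and -0.0024 with PTH (adjusted p = 0.993, interval 0.86- to 1.16-fold), so changes beyond these bounds are outside the intervals. Cyp2r1 (gene 244209, chromosome 7, 114550123 to 114563048) ran from 0.26 to 0.80 FPKM with YKL-05-099, from 0.17 to 0.94 with PTH and from 0.26 to 0.92 with vehicle, with medians of 0.39, 0.58 and 0.455. Its intervals, 0.633- to 1.39-fold with YKL-05-099 and 0.743- to 1.64-fold with PTH, were the widest of the 8 genes, and a change within them was not detectable at this depth. The ratio Cyp27a1/Cyp2r1 did not pass the test in any comparison (exact permutation p = 0.367 for YKL-05-099 and 0.564 for PTH against vehicle, adjusted p = 0.652 and 0.704).

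CYP27A1 also oxidises the sterol side chain on the way from cholesterol to bile acids, and genes of that way were counted beside it. Of 11 measured genes, 2 fell and 0 rose with YKL-05-099 and 3 fell and 0 rose with PTH, where 17.7% and 17.1% of all genes were called. The list medians were -0.01 and -0.06, against -0.05 over all genes in both comparisons. The peroxisomal enzyme gene Hsd17b4 averaged 101 ± 6.94 FPKM with YKL-05-099 and 94.7 ± 10.01 FPKM with PTH, against 115 ± 3.56 FPKM with vehicle (log2 fold change -0.19, adjusted p = 0.025, and -0.29, adjusted p = 0.00107). Scp2, a peroxisomal sterol carrier, fell by 0.23 and 0.20 with the 2 agents, and Amacr, a racemase of bile acid intermediates, fell by 0.23 with PTH. Median-ratio scaling ended both YKL-05-099 calls and, with PTH, those of Scp2 and Amacr (adjusted p from 0.0649 to 0.129). Quantile normalization ended both YKL-05-099 calls and that of Scp2 with PTH. Against PTH, Amacr was higher with YKL-05-099 by 0.26 (adjusted p = 0.00987), the 1 of 11 called, where 6.42% of all genes were.

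The electron donors serve CYP27A1, CYP27B1 and CYP24A1 alike. Fdx1 (ferredoxin, gene 14148, chromosome 9, 51943023 to 51963602) had its lowest, median and highest values at 50.5, 55.8 and 71.5 FPKM with YKL-05-099, at 48.8, 57.0 and 85.0 FPKM with PTH and at 59.8, 67.4 and 76.4 FPKM with vehicle. With YKL-05-099, 1 of 8 libraries, replicate 6, was above the vehicle mean, and the ranges overlapped. The log2 fold change was -0.23 (SE 0.09, 95% interval -0.43 to -0.04, exact permutation p = 0.00901 before adjustment, limma adjusted p = 0.08). Over 33 alternatives the adjusted p ran from 0.00698 to 0.198 and was below 0.05 in 4, which were library weights (0.00698), a fit of those 2 groups alone (0.0203) and leaving out PTH replicate 4 (0.0371) or YKL-05-099 replicate 6 (0.038). With PTH it was -0.12 (adjusted p = 0.398). PTH replicates 1 to 4 were at 58.3 to 85.0 FPKM and replicates 5 to 8 at 48.8 to 55.7 FPKM, so the 2 sets did not overlap, as for Cubn but with the order turned round.

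Fdxr (ferredoxin reductase, gene 14149, chromosome 11, 115268024 to 115277101) ran from 4.99 to 9.27 FPKM with YKL-05-099 (median 6.00), from 4.04 to 11.52 with PTH (median 6.72) and from 4.96 to 7.61 with vehicle (median 6.20). The vehicle range lay almost wholly within that of either agent. Its log2 fold changes were 0.04 (adjusted p = 0.908) and -0.0044 (adjusted p = 0.992). The ratio Fdxr/Fdx1 was 0.0889 to 0.155 with YKL-05-099 and 0.0771 to 0.113 with vehicle, and 7 of 8 YKL-05-099 libraries were above the vehicle mean. The difference of 0.27 on the log2 scale had an exact permutation p of 0.0163 and an adjusted p of 0.0864, which fell below 0.05 without vehicle replicate 7 (0.041) or YKL-05-099 replicate 4 (0.0242).

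Among the other enzymes, donors and carriers of vitamin D metabolism, 10 were measured above the filter. Of these, 3 rose and 1 fell with YKL-05-099 and 1 rose and 1 fell with PTH, where 17.7% and 17.1% of all genes were called. The list medians were 0.13 and -0.0019, against -0.05 over all genes in both. Median-ratio scaling made it 4 higher and 1 lower with YKL-05-099. Cyp27b1 and Cyp24a1 made up both PTH calls, with log2 fold changes of 3.64 and -3.84. Those called with YKL-05-099 included both and Dhcr7, which uses up the vitamin D precursor to make cholesterol, at 6.65 ± 0.524 FPKM with YKL-05-099, 4.64 ± 0.875 with PTH and 4.51 ± 0.88 with vehicle (log2 fold change against vehicle 0.57, adjusted p = 0.00226). Against PTH, Dhcr7 and Cyp24a1 were the 2 of 10 called, both higher with YKL-05-099 (log2 fold changes 0.53 and 2.61), where 6.42% of all genes were called. Por, the donor for microsomal CYP2R1, was at 158 ± 11.6 FPKM with YKL-05-099, 142 ± 18.4 with PTH and 141 ± 9.42 with vehicle, and Gc, the plasma carrier of vitamin D, at 73.5 ± 8.33, 73.2 ± 6.21 and 83.8 ± 19.6 FPKM. Neither was called in any comparison.

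Vdr (vitamin D receptor, gene 22337, chromosome 15, 97854427 to 97908296) ran from 88.6 to 99.8 FPKM with YKL-05-099 (median 96.6), from 71.9 to 106 with PTH (median 81.4) and from 81.7 to 114 with vehicle (median 94.4). The YKL-05-099 libraries lay within the vehicle range, and 4 of 8 were above the vehicle mean. The log2 fold change of 0.01 (adjusted p = 0.975) has a 95% interval of 0.893- to 1.13-fold, the change in Cyp27b1 in the same libraries being 2.73 on the log2 scale. With PTH, replicates 1 to 4 were at 71.9 to 77.3 FPKM, below every vehicle library, and replicates 5 to 8 at 85.4 to 106 FPKM, within the vehicle range. The log2 fold change with PTH was -0.18 (SE 0.08, 95% interval 0.787- to 0.995-fold, adjusted p = 0.15). In the fit with the length index as a covariate it was -0.23 (adjusted p = 0.0284), and over 33 alternatives the adjusted p ran from 0.0284 to 0.354, below 0.05 in 1. All 8 YKL-05-099 libraries were above the PTH mean, by 0.18 on the log2 scale (adjusted p = 0.206).

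Rxra (retinoid X receptor alpha, gene 20181, chromosome 2, 27676445 to 27763319) ran from 18.2 to 21.8 FPKM with YKL-05-099 (median 20.6), from 15.1 to 22.7 with PTH (median 17.3) and from 17.1 to 22.5 with vehicle (median 19.4). All 8 YKL-05-099 libraries were above the PTH mean, and 6 of 8 PTH libraries were below the vehicle mean. Against PTH the log2 fold change was 0.22 (SE 0.08, adjusted p = 0.0857, from 0.0166 to 0.169 over 33 alternatives and below 0.05 in 2, the length index covariate and leaving out PTH replicate 7). The log2 fold change was 0.07 (adjusted p = 0.598) for YKL-05-099 and -0.16 (adjusted p = 0.174, and 0.0333 with the length index covariate and 0.0464 without PTH replicate 7) for PTH against vehicle. Of its relatives, Rxrb was at 11.2 ± 1.57 FPKM with YKL-05-099, 12.4 ± 0.979 with PTH and 11.3 ± 0.723 with vehicle, and Rxrg at or below 0.92 FPKM in every library. Neither was called. The ratio Rxra/Vdr was 0.195 to 0.233 with YKL-05-099, 0.194 to 0.244 with PTH and 0.156 to 0.273 with vehicle, and the means differed by at most 0.06 on the log2 scale (adjusted p from 0.652 to 0.867, exact permutation tests).

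Targets of the receptor were counted next, in 1 list that was not split by the direction of their response to the hormone. Of 13 measured vitamin D targets of the kidney, 3 rose and 2 fell with YKL-05-099 and 1 rose and 2 fell with PTH, where 17.7% and 17.1% of all genes were called. The list medians were -0.0078 and 0.02, against -0.05 over all genes in both. Under median-ratio scaling 4 were higher and 1 lower with YKL-05-099, and 1 higher and 1 lower with PTH. Cdkn1a, a cell cycle inhibitor, rose by 1.08 with YKL-05-099 and 1.00 with PTH on the log2 scale. The log2 fold changes of Cyp24a1 were -1.23 and -3.84. The calcium-binding protein gene S100g averaged 1140 ± 210 FPKM with YKL-05-099 and 1511 ± 207 FPKM with vehicle (log2 fold change -0.41, adjusted p = 0.0278, and 0.0572 under median-ratio scaling). Its relative Calb1 was at 212 ± 31.6 FPKM with PTH and 266 ± 37.8 FPKM with vehicle (-0.33, adjusted p = 0.0332, and 0.0716 and 0.092 under median-ratio scaling and quantile normalization). The phosphate transporter genes Slc34a1 and Slc34a3 rose with YKL-05-099 by 0.42 and 0.35. Slc34a1 also stands on the proximal tubule marker list above. Calb1 likewise stands on the distal convoluted tubule marker list, as does Slc8a1 of the target list. With PTH, 3 of the 7 markers on that list were called lower and 0 higher, with a median of -0.25 against -0.05 over all genes. The part of that segment in the Calb1 value was not tested. Against PTH, Cyp24a1 and Slc34a1 were the 2 of 13 called, both higher with YKL-05-099, where 6.42% of all genes were called.

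Of 17 partners and cofactors of the receptor, 4 fell and 0 rose with YKL-05-099, and 3 fell and 2 rose with PTH, where 17.7% and 17.1% of all genes were called. The list medians were -0.02 and 0.09, against -0.05 over all genes in both. The coactivator and splicing factor gene Snw1 averaged 45.8 ± 4.49 FPKM with YKL-05-099 and 48.6 ± 7.19 FPKM with PTH, against 61.3 ± 4.45 FPKM with vehicle (log2 fold changes -0.42, adjusted p = 0.000845, and -0.34, adjusted p = 0.00315). Psmc5, a proteasome subunit that binds the receptor, fell by 0.41 and 0.27, and the bromodomain gene Brd7 by 0.34 and 0.26. Median-ratio scaling ended the Psmc5 call with PTH (adjusted p = 0.0549) and that of Baz1b with YKL-05-099 (0.0512). Med1, the Mediator subunit that contacts nuclear receptors, rose with PTH by 0.17 (adjusted p = 0.0453). Against PTH, 1 of the 17 was called, Med1, lower with YKL-05-099 by 0.28 (adjusted p = 0.00355), where 6.42% of all genes were called.

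Rxra serves other receptors too, and 15 of these were measured. With YKL-05-099 4 rose and 1 fell, and with PTH 4 rose and 3 fell, counts that were the same under median-ratio scaling, quantile normalization and the length index covariate. Of all genes 17.7% and 17.1% were called. The list medians were 0.06 with YKL-05-099 and 0.01 with PTH, against -0.05 over all genes in both. The 3 that fell with PTH were Nr1h4, the bile acid receptor, at 88.1 ± 8.93 FPKM with YKL-05-099, 63.5 ± 6.33 with PTH and 98.2 ± 10.7 with vehicle, Ppara, the fatty acid receptor, at 29.9 ± 2.52, 22.004 ± 3.77 and 30.3 ± 3.15 FPKM, and Nr1i2, the xenobiotic receptor (log2 fold change -0.74). None of the 3 was called with YKL-05-099 against vehicle (adjusted p = 0.151, 0.928 and 0.168), and all 3 were called higher with YKL-05-099 than with PTH (log2 fold changes 0.47, 0.46 and 0.48, adjusted p = 0.000219, 0.00182 and 0.0232). In that comparison 4 of the 15 were higher and 1 lower with YKL-05-099, where 6.42% of all genes were called. The early-response receptors Nr4a1 and Nr4a2 rose by 5.39 and 3.90 with YKL-05-099 and by 5.87 and 4.12 with PTH.

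Whether Vdr varied together with Cyp24a1 or with Cyp27b1, in either direction, was asked within each group, since the groups themselves differed in both hydroxylases. Among vehicle libraries Vdr and Cyp24a1 were positively correlated, short of the threshold after adjustment (Pearson's r = 0.82, exact permutation p = 0.0114, adjusted over 6 relations p = 0.0686, Spearman's rho = 0.81, exact permutation p = 0.0218, adjusted p = 0.131). Vehicle replicate 2 was lowest for both, at 81.7 FPKM of Vdr and 20.3 FPKM of Cyp24a1, and vehicle replicate 7 highest for both, at 114 and 172 FPKM. That library also had the highest summed level of adipocyte markers, 413.62 FPKM against 120 to 209 FPKM in the other 7 vehicle libraries, and of endothelial (409 FPKM) and urothelial markers (31.2 FPKM). Among vehicle libraries it was highest for distal convoluted tubule (703 FPKM), intercalated cell (310 FPKM) and, narrowly, principal cell markers (357 FPKM) too. It was lowest for thick ascending limb (1365 FPKM) and S3 markers (502 FPKM). The part of all these markers in the relation was not tested. Without the 2 libraries farthest from the Vdr median, vehicle replicates 7 and 3, r was 0.49, so the relation rests in part on them. Within the other groups r was 0.01 with YKL-05-099 and 0.24 with PTH, and for Vdr with Cyp27b1 it was 0.35, -0.24 and -0.39 with YKL-05-099, PTH and vehicle (adjusted p = 0.697 for each of the 3, exact permutation tests). None of the 6 relations passed the threshold, and the groups' coefficients were not tested against each other.

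**Figure D4:**
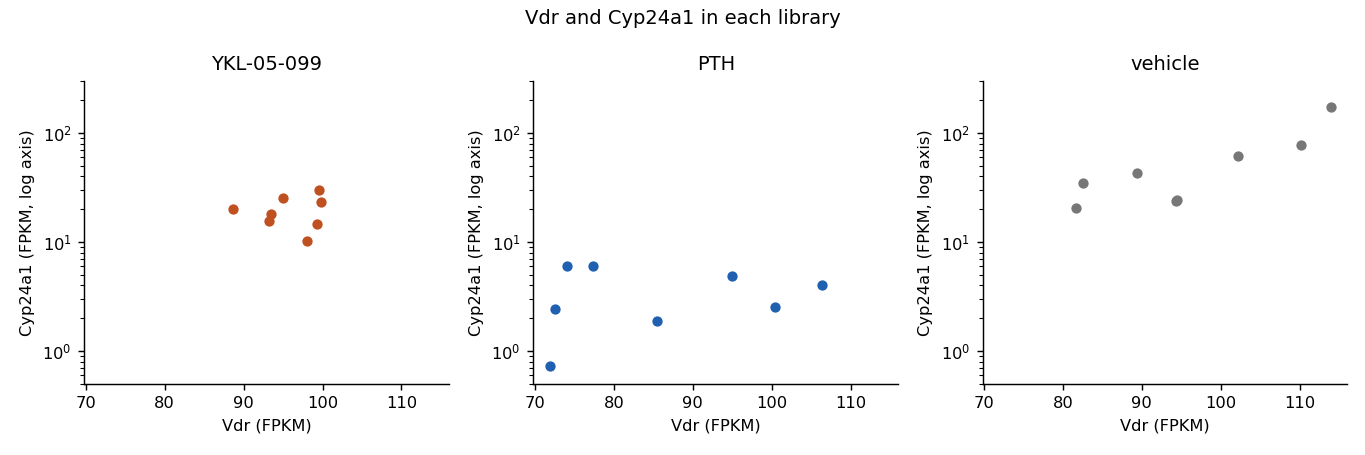
Cyp24a1 (FPKM, vertical log axis) against Vdr (FPKM, horizontal axis) in each library, with YKL-05-099 left, PTH in the middle and vehicle right, 1 point per library. The vehicle points run from 81.7 and 20.3 FPKM to 114 and 172 FPKM, while the YKL-05-099 points fall between 88.6 and 99.8 FPKM of Vdr.

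The 8 genes varied between libraries in a way that followed transcript length. A length index was computed per library as the mean log2 deviation of 1755 long transcripts (at least 4000 bases) minus that of 1366 short ones (at most 1500 bases), with the 8 genes left out. It ran from -0.21 to 0.31 with YKL-05-099, from -0.45 to 0.31 with PTH and from -0.19 to 0.05 with vehicle, with PTH replicate 4 lowest and PTH replicates 5 to 8 between 0.13 and 0.31. After group means were removed, the correlation of each gene with the index over 24 libraries was 0.79 for Lrp2 (15460 bases), 0.76 for Cubn (11262 bases), 0.55 for Rxra (4905 bases) and 0.53 for Vdr (4370 bases), and it was -0.60 for Fdxr (1948 bases), -0.60 for Cyp27a1 (1892 bases), -0.17 for Cyp2r1 (1627 bases) and -0.80 for Fdx1 (875 bases). The 4 transcripts over 4000 bases were all positive and the 4 shorter ones all negative. The index sets long against short transcripts, so such signs follow in part from how it is built. The share of all long or short transcripts with these signs was not counted. Points share libraries and scaling, so the correlations are descriptions. The source of the index was not tested.

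**Figure D5:**
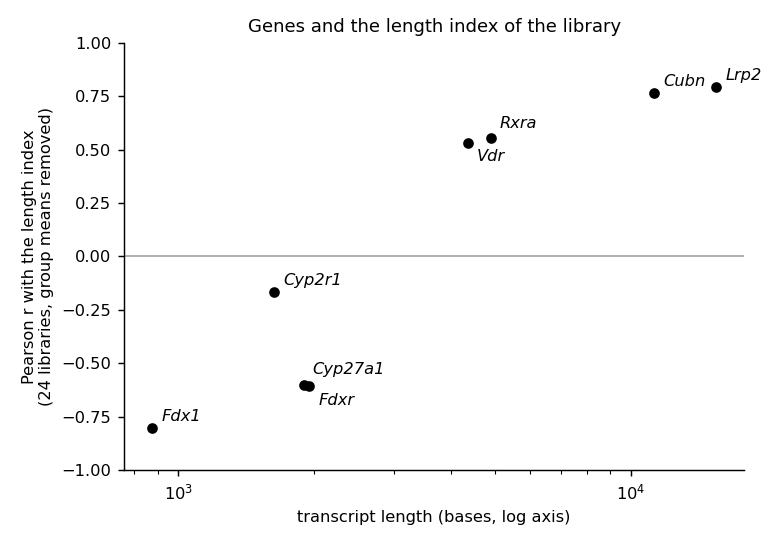
Pearson correlation of each gene with the length index of the library (vertical axis, 24 libraries, group means removed) against its transcript length in bases (horizontal log axis), 1 point per gene. The 4 long transcripts sit between 0.53 and 0.79 and the 4 short ones between -0.80 and -0.17.

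The 8 genes were also compared in pairs. Lrp2 and Cubn had the highest correlation over the 24 libraries with group means removed (r = 0.85), followed by Fdx1 with Fdxr (0.65) and Vdr with Cubn (0.61). Vdr ran against Fdx1 (r = -0.62) and Lrp2 against Fdxr (-0.61). Vdr and its partner Rxra were at 0.30, below Vdr with the short transcript Cyp2r1 (0.34). Cubn with Cyp2r1 (0.12) was the other pair of a long and a short transcript above 0. The genes most like each member, among 8988 of at least 5 FPKM, were Ptprk, Itpr1 and Ankib1 for Lrp2 (r from 0.92 to 0.95), Fech, Slc4a4 and Itpr1 for Cubn (0.88 to 0.90), Pank1, Slc2a2 and Gpam for Vdr (0.76 to 0.80) and Foxo3, Peli2 and Tbcd for Rxra (0.80 to 0.85). For the short transcripts they were Dgcr6, Ppia and Ostf1 for Fdx1 (0.85 to 0.87), Polr2l, Gyltl1b and Tjap1 for Fdxr (0.79 to 0.81), Cryl1 and Txn2 for Cyp27a1 (0.79 to 0.80) and Dnase2a, Idh3a and Dgat1 for Cyp2r1 (0.65 to 0.77). These coefficients include what the length index shares among genes.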

How the data were processed

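Whole-kidney RNA was sequenced as circularised libraries on a BGISEQ500 instrument. The authors aligned and quantified it, and deposited its FPKM values in 1 table with a column for each of the 24 libraries. The submitters' processing notes list STAR 2.7.2b, RSEM 1.3.0, DESeq2 (no version) and the builds mm10 and GRCm38. Strand setting, filters and annotation release: not given in the sources used here. Because FPKM is set against the total of a library, changes in abundant genes can shift the rest. The 1 further value column equalled PTH replicate 3 in 19426 of 19426 entries and was left out.

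Genes averaging 0.5 FPKM or more over the 24 libraries (13991) were taken to log2(FPKM + 0.1), a scale that shrinks the changes of low genes. They were fitted in limma 3.58.1 (R 4.3.3) with a variance trend, in 1 fit over the 3 labelled groups, with Benjamini-Hochberg adjustment over all genes and a threshold of 0.05. The fit was tested on simulated data. Ratios and correlations used exact permutation tests (Python 3.11.15, numpy 2.4.6), and figures matplotlib 3.10.9. The table holds no counts, so no count model was fitted. Depth was estimated from low values of transcripts of 700 to 1200 bases, of which 74.1% to 84.4% lay within 0.2 of a whole fragment. Promoters and coordinates are RefSeq's on GRCm38.p6, and 19360 of 19426 identifiers matched. Of the list genes, 6 were not matched and 1 was a second name.

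The 8 genes and all lists were chosen with earlier results of these data known. Named were the 8 genes, up to 4 genes of smallest adjusted p per list and comparison, Cyp27b1 and Cyp24a1, the 3 genes most like each of the 8, and markers beside a result. A few genes that this rule names are not reported here, though the counts of their lists include them. Some others (Rxrb, Rxrg, Por, Dab2, Amn, Gc) were given for their roles, Myo6 was named after its values were seen, and the split of the PTH replicates was noticed after values were seen. Alternatives covered the pseudocount, filter, scaling, library weights, replicate block, fits of 2 groups and each library left out. The length index covariate, permutation tests of single genes and list calls under other scalings were added after the data were seen.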

Additional observations from a re-analysis of the deposited data

Results flagged for a closer look

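Among 36 sets of 8 libraries (8 genes and 4 ratios in 3 groups), 2 had a library far from the other 7 by Dixon's test, where chance gives about 1 in 20. Rxra in YKL-05-099 replicate 8 was at 18.21 FPKM, lowest of its group, with the other 7 between 20.2 and 21.8 FPKM. The Rxra/Vdr ratio in PTH replicate 1 was at -2.03 on the log2 scale, highest of its group, with the other 7 between -2.36 and -2.22.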

How the results depend on the processing

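Of 785 alternative log2 fold changes of the 8 genes, 728 kept their direction and their side of the threshold, 19 passed it and 38 changed sign, none of these beyond 0.123 in size. Of 228 alternative ratio differences, 217 kept both. For YKL-05-099 against vehicle, the number of the 8 genes called was 1 under median-ratio scaling and with the length index covariate (Cubn), 2 with library weights and in the fit of those groups alone (Cubn and Fdx1), and 0 to 2 with 1 library left out. For PTH against vehicle it was 2 with library weights (Lrp2 and Cubn), 2 with the length index covariate (Vdr and Rxra) and 0 to 1 with 1 library left out, and for YKL-05-099 against PTH 1 with the length index covariate (Rxra) and 0 to 1. Genes called were 3834 with library weights for YKL-05-099 against vehicle, and 521 in the fit of those groups alone and 1390 with the length index covariate for YKL-05-099 against PTH. The cause was not tested.

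Signs changed as follows, all near 0. Fdxr with PTH was 0.003 with a pseudocount of 1, 0.039 under median-ratio scaling, 0.0305 under quantile normalization, 0.12 with the length index covariate and -0.13 to 0.084 with 1 library left out. Cyp27a1 with PTH was 0.0415, 0.0056 and 0.075 under those 2 scalings and the covariate, and -0.051 to 0.0455 with 1 left out. Cyp2r1 with YKL-05-099 was 0.027 under quantile normalization, and Vdr with YKL-05-099 was -0.0398 with the covariate and -0.027 to 0.042 with 1 left out. With 1 left out, Fdxr ran from -0.0354 to 0.0903 with YKL-05-099 against vehicle and from -0.0454 to 0.17 against PTH. The log2 ratio Rxra/Vdr ran from -0.037 to 0.078 and Cubn/Lrp2 from -0.012 to 0.047 for PTH against vehicle. The ratios that passed the threshold in some of these ran from 0.21 to 0.32 (Fdxr/Fdx1, YKL-05-099 against vehicle) and from 0.16 to 0.22 (Cubn/Lrp2, YKL-05-099 against PTH). Without the 2 libraries farthest from the Vdr median, r was -0.0045 for Cyp24a1 with YKL-05-099, 0.0935 for Cyp27b1 with PTH and -0.32 for Cyp27b1 with YKL-05-099.

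Same-numbered libraries did not deviate together over all genes (1 of 24 pairs had r over 0.1, range -0.20 to 0.20). The labels do not say whether the numbers pair samples, and this check cannot exclude it. With the replicate block 2265, 2203 and 760 genes were called for YKL-05-099 against vehicle, PTH against vehicle and YKL-05-099 against PTH, 0 of them among the 8. The Cubn/Lrp2 difference of 0.21 for YKL-05-099 against vehicle had an adjusted p of 0.0938, the smallest that 1 ratio alone could reach in its sign-flip test. Under quantile normalization 45.3% of calls were higher with YKL-05-099 and 44.1% with PTH than with vehicle. In 7 values Cyp2r1 fell under the filter and gave none, and its few fragments limit what could be seen of it.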
